A study of Mus musculus with 72 samples.

Results

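The cytosolic ribosomal protein genes were followed in the brains of 72 mouse pups given morphine or saline in 3 windows of development. A gene of the count table was a member when its name began with Rpl or Rps and a digit, or was Rpsa, Rplp0, Rplp1 or Rplp2, and its biotype was protein coding. Names of S6 kinases, Rps19bp1 and names ending in -ps, which mark processed pseudogenes, were left out. The rule gave 84 members among 55401 genes of the table: 43 genes of the large subunit, 31 of the small subunit, 3 of the stalk, and 7 paralogs or retrogenes (Rpl3l, Rpl7l1, Rpl22l1, Rpl36al, Rps27l, Rps27rt and Rps23rg1). Fau, which encodes a ribosomal protein fused to a ubiquitin-like domain, does not carry such a name and was not a member.

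All pups were C57Bl/6 mice, of the substrain C57Bl/6NTac according to the methods, and RNA came from the right brain hemisphere according to the methods, or from the cortex according to the design text. PND1 pups were exposed before birth, through a minipump in the dam that delivered morphine at 10 mg/kg a day or saline, and their brains were taken 6 h after the birth was found. PND14 pups were injected after birth with morphine at 10 mg/kg or with saline, 2 times a day up to day 14. The 3-Tri pups had the minipump exposure before birth and then the injections, and the brains of both day 14 groups were taken 6 h after the last injection. Each window had a female (F) and a male (M) label and both drugs, with 4 F morphine, 7 F saline, 6 M morphine and 7 M saline libraries at PND1 and 6 libraries in each of the other 8 groups. No source used here names the litter of a pup, so the p-values measure the spread between libraries, some of which may share a dam.

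Ribosomal proteins and ribosomal RNA build the small subunit, which reads the mRNA, and the large subunit, which forms the peptide bond. The genes encoding them are expressed in every cell, and their products are used in near equal numbers. Many of their mRNAs start at a C followed by a run of pyrimidines (the TOP motif), through which the mTOR pathway controls their translation. In the brain, ribosome production is known to be high in dividing progenitors and in growing neurons.

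Stretches around the start site are shown for 6 members that the results turn on: Rps15a, with the largest fall with age; Rpl15, the member called under postnatal morphine; Rps18, Rps23 and Rps16, which were lower under prenatal morphine; and Rpl3l, which rose with age. Each runs 5′ to 3′ from 25 bases before the first start listed by RefSeq on GRCm38.p6 to 25 bases from it, with the longest pyrimidine run that reaches within 5 bases of the start in capitals. They lie at chr7:118116123-118116172 on the minus strand (Rps15a), chr14:18270962-18271011 minus (Rpl15), chr17:33955641-33955690 minus (Rps18), chr13:90923097-90923146 plus (Rps23), chr7:28350664-28350713 plus (Rps16) and chr17:24727801-24727850 plus (Rpl3l).
Rps15a: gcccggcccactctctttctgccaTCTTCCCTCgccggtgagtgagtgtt
Rpl15: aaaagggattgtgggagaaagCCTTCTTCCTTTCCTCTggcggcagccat
Rps18: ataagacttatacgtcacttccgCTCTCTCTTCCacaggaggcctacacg
Rps23: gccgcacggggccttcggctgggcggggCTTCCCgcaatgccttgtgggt
Rps16: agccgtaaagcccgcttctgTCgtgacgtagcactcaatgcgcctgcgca
Rpl3l: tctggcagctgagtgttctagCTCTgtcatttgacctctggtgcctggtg

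In Rpl15, Rps15a and Rps18 the run covers the start, at 17, 9 and 11 bases, and the base at the listed start is a C followed by at least 4 pyrimidines. The runs of Rps23, Rps16 and Rpl3l are 6, 2 and 4 bases long. Of the 84 members, 64 had a promoter entry. A run of at least 8 pyrimidines at the start was found in 22 of them (34.4%), against 9.3% of all 27025 genes with an entry, and a C at the start with 4 pyrimidines after it in 13 (20.3%), against 2.49%. Over the 300 bases from 250 before the start, CCGGAAGT was found on either strand in 12 members (18.8%, against 4% of all genes), AAGATGGC in 5 (7.81%, against 2.88%) and CACGTG in 5 (7.81%, against 7.24%). TATAAA was found in the 50 bases before the start of 1 member (1.56%, against 2.88%). These are matches of letters at 1 listed start per gene, and a start shifted by a few bases would change the first 2 shares.

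The depth of the libraries differed between windows, with 20742862 to 27333125 counts per library at PND1, 4407544 to 21404819 at PND14 and 3113919 to 19938980 in 3-Tri. Xist and the Y-linked gene Ddx3y went against the sex label in 4 of 24 PND1 libraries (F Mor replicate 4, M Mor replicate 5, F Sal replicate 5 and M Sal replicate 10), in 0 of 24 PND14 libraries and in 12 of 24 3-Tri libraries, so F and M are used here as labels only. The 5 forebrain marker genes summed to between 374 and 694.5 CPM (counts scaled per library, below) in all libraries. The pooled mean values the authors deposited match the counts without the 2 shallowest libraries, PND14 F Mor replicate 4 and 3-Tri M Sal replicate 1, which were kept here. Leaving them out gave the same number of called members in each comparison within a window. That says little, since PND1 held neither and the day 14 windows had at most 1 called member in a comparison. The median of the members for the drug in PND14 F pups went from 0.10 to 0.07. The drug effects of PND14 and 3-Tri differed from that of PND1 for 48 and 24 members (52 and 25 with all libraries). Of all genes 3108 and 2047 were then called (2931 and 1855).

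Per base of transcript, most members lay close together. Levels per length are given as RPKM, the TMM-scaled CPM divided by the length of the shortest principal transcript in kilobases. The median member stood at 201.6 RPKM in PND1 saline pups and at 144 RPKM in PND14 saline pups, and 71 of 84 members reached 100 RPKM or more at PND1. Over all saline pups Rpl41, which encodes a very short protein of the large subunit, was the highest at 527 RPKM, followed by the stalk gene Rplp1 at 478 RPKM and Rps2, a small subunit gene near the mRNA entry channel, at 354 RPKM. The stalk, built from Rplp0 with Rplp1 and Rplp2, binds the translation factors.

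The paralogs and retrogenes were among the 8 lowest members. Rpl7l1 stood at 35.1 RPKM, Rpl36al at 33.8 RPKM, Rpl22l1 at 30.4, Rps27l at 26.6 and Rps27rt at 8.03, whereas Rps23rg1 was at 0.61 RPKM and Rpl3l, best known from skeletal and heart muscle, at 0.333. Their partners were far more abundant, with 269.5 RPKM for Rpl3 and 168 RPKM for Rps27. Reads from paralogs, retrogenes and pseudogenes of such similar sequence may be shared or lost in counting, and the 122 genes with -ps names summed to between 214.5 and 456.8 CPM per library. The small subunit gene Rps20, also among these 8, stood at 31.8 RPKM, which rests on a principal transcript of 3706 bases. The 290.9 RPKM of Rpl22 rest on a transcript of 474 bases. Across the members, the order of PND1 and PND14 saline levels was alike (Spearman rho 0.924, n = 84 genes, which share libraries and lengths).

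**Figure D1:**
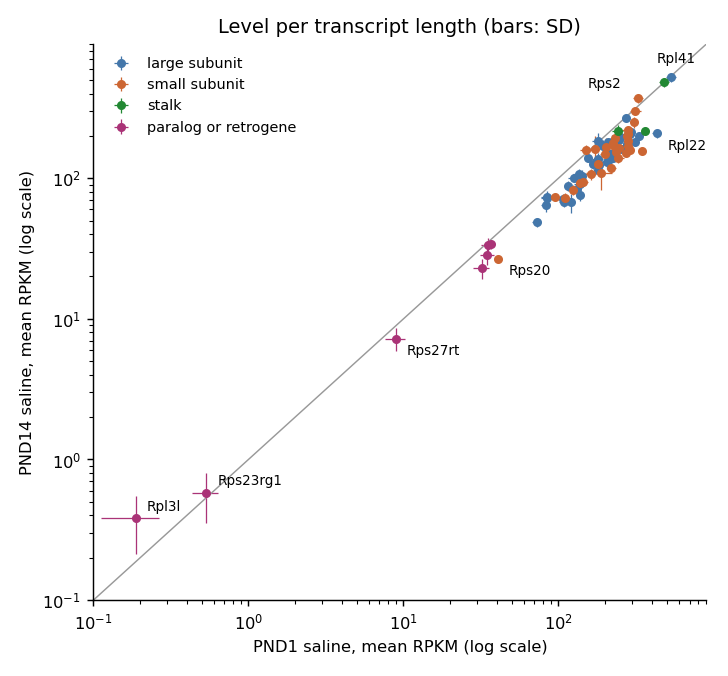
Level of each member per transcript length in saline pups, mean RPKM at PND1 (horizontal, n = 14) against PND14 (vertical, n = 12), both on log scales with SD bars, coloured by role. Most members sit together above 100 RPKM, with the paralogs and retrogenes and Rps20 near the bottom, down to Rps23rg1 and Rpl3l under 1 RPKM.

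From birth to day 14 the ribosomal protein mRNAs fell relative to the rest of the transcriptome. In saline pups 73 of 84 members were lower at PND14 than at PND1 and 2 were higher (edgeR quasi-likelihood test, adjusted p under 0.05), with a median log2 fold change of -0.46, whereas the median over all 22010 genes tested was -0.02. The background is large here, since 43.2% of all genes were called lower, and the members stood at 86.9%. The large subunit had 40 of 43 members lower (median -0.47) and the small subunit 27 of 31 lower and 1 higher (median -0.57). Summed over all members, saline libraries ranged from 11797 to 14344 CPM at PND1 and from 8796 to 10450 CPM at PND14, without overlap. The members made up 1.45% ± 0.072 (SD, n = 14) of the counts at PND1 and 0.891% ± 0.055 (SD, n = 12) at PND14.

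**Figure D2:**
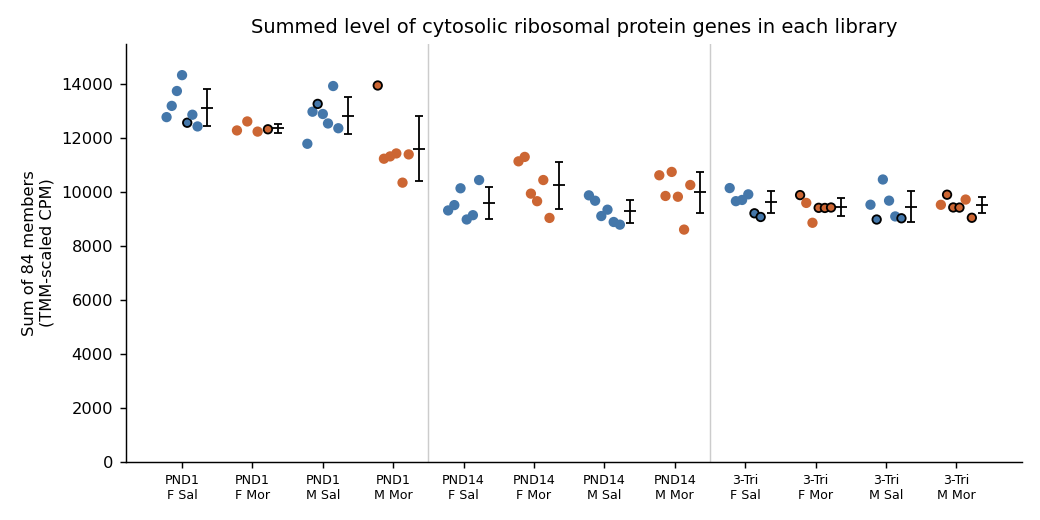
Sum of the 84 members in each library (TMM-scaled CPM, axis from 0), by window, sex label and drug, with group mean and SD bars and libraries against their sex label outlined in black. The PND1 saline libraries, at 11797 CPM or more, lie above all day 14 libraries, the highest of which is at 11310 CPM.

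Rps15a, a small subunit protein, showed the largest fall. Its level was between 202 and 243 CPM in the 14 PND1 saline libraries (median 221) and between 95.3 and 111 CPM in the 12 PND14 saline libraries (median 98.3). Every PND1 library was thus above every PND14 library, with a log2 fold change of -1.14 (SE 0.03, edgeR adjusted p = 5.45e-44). Rpl22, a large subunit protein that also binds viral and cellular RNAs, followed at -1.04 (SE 0.04), from 204 ± 13.2 CPM (SD, n = 14) to 98.8 ± 7.34 CPM (SD, n = 12). Other large falls were those of Rps12 (-0.89, SE 0.05), Rps7 (-0.86, SE 0.04) and Rpl30 (-0.86, SE 0.04), none of whose PND1 and PND14 saline levels overlapped. Rpl15, Rpl10 and Rps4x fell by 0.73, 0.78 and 0.72 on the log2 scale.

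Some members did not follow. Rps2 rose from 326 ± 22.7 CPM (SD, n = 14) to 369 ± 24.2 CPM (SD, n = 12), a log2 fold change of 0.18 (SE 0.04, edgeR adjusted p = 4.02e-05), with overlapping ranges. Rpl3l rose by 1.00 (SE 0.23), but from 0.26 to 0.53 CPM on average, at the edge of detection. The 9 members not called were Rpl3 (-0.02), Rplp1 (-0.01), Rpl41 (-0.03), Rps15 (-0.06), Rps29 (-0.09), Rpl38 (0.03), Rps21 (0.07), Rpl36al (-0.07) and Rps23rg1 (0.06). Rpl3, which lies close to the peptidyl transferase centre, was at 341 to 392 CPM in PND1 saline pups and at 342 to 386 CPM in PND14 saline pups, so its ranges nearly coincided. These directions are relative to the other genes. Scaled by total counts alone, the median of all genes moved from -0.02 to -0.26, that of the members to -0.70, and Rps2 to -0.06, with 81 members called lower and 1 higher. The same scaling turned the split of all genes from 9511 lower and 9176 higher into 12044 lower and 6878 higher. With a correction for GC content and length, 80 members were called lower and 2 higher (median -0.53, all genes -0.09). Of all 22010 genes 10313 were then lower and 8487 higher. Which members are not called thus depends on the processing.

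Taken as point values, the changes within the stalk and within several paralog pairs were unequal. In the stalk, Rplp0 fell by 0.73 (SE 0.04) and Rplp2 by 0.14 (SE 0.05), whereas Rplp1 stood at 240 ± 18.1 CPM (SD, n = 14) at PND1 and 239 ± 17.1 CPM (SD, n = 12) at PND14. Rpl22 fell by 1.04 and its paralog Rpl22l1 by 0.28 (SE 0.07). Rpl36a fell by 0.59 (SE 0.05) and Rpl36al was not called, and Rpl7 fell by 0.69 (SE 0.03) and Rpl7l1 by 0.11 (SE 0.03). Rps27 and Rps27l were closer, with falls of 0.43 and 0.47. Rps6, the substrate of the S6 kinases, fell by 0.36 (SE 0.03) and Rpsa, also known as the laminin receptor, by 0.30 (SE 0.04). The differences between the genes of a pair were not tested.

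**Figure D3:**
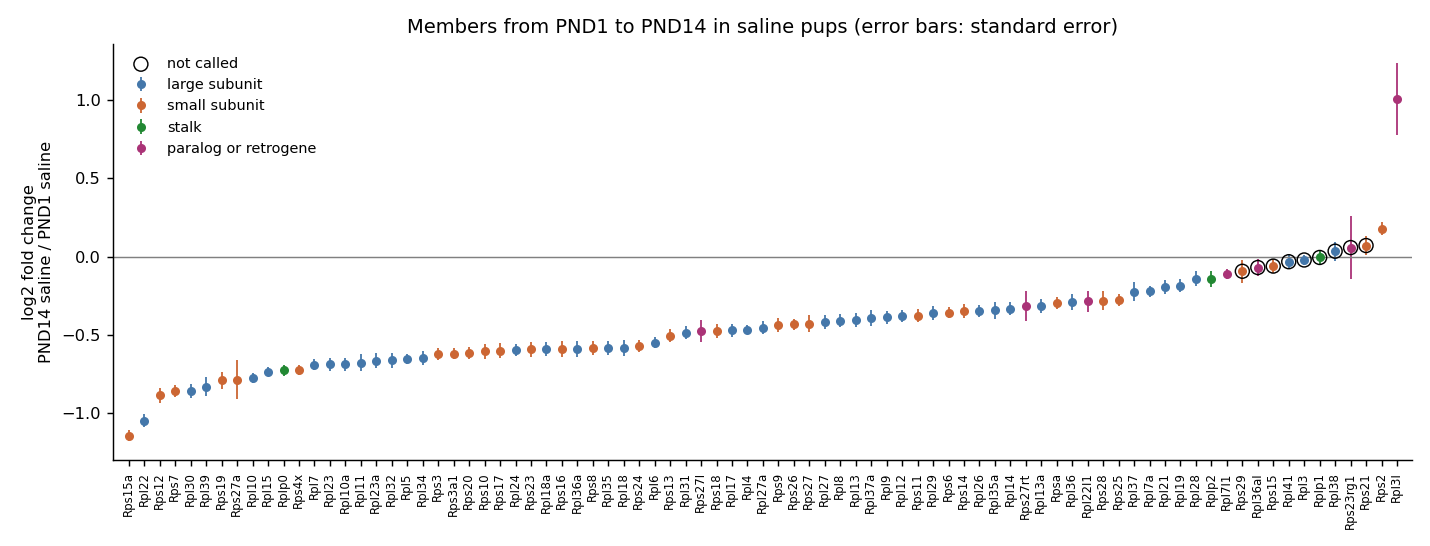
Log2 fold change from PND1 to PND14 in saline pups for 83 of the 84 members, sorted, with standard error bars, coloured by role and circled where not called. Values run from -1.14 (Rps15a) to 1.00 (Rpl3l), and all but 5 of those shown lie below 0.

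The saline pups of the 3-Tri window, also 14 days old, gave the same counts against the same PND1 libraries, with 73 members lower and 2 higher (median -0.42; 43% of all genes lower). The 2 higher members were again Rps2 (0.18) and Rpl3l (1.05). Rps15a was at 96.2 to 109 CPM there, inside nearly the same range as in PND14 saline pups. Between 3-Tri and PND14 saline pups 0 of 84 members differed (0% of all genes called, median 0.02), with 1 member and 723 of 22010 genes at an unadjusted p under 0.05. Age could not be told apart from the schedule of injections or from any difference in dissection or library preparation, since no window held both ages.

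Cell type markers and genes of the hindbrain and spinal cord differed along with age. In saline pups all 5 oligodendrocyte genes of the list were higher at PND14 (median log2 fold change 5.81), all 5 genes of dividing progenitors were lower (median -1.94), all 5 microglial genes were higher (median 1.20) and all 9 hindbrain and spinal cord genes tested were lower (median -4.75). The sum of the hindbrain and spinal cord genes varied widely within PND1 saline pups, from 0.039 (F Sal replicate 4) to 38.7 CPM (F Sal replicate 7). In PND14 saline pups it was at most 1.24 CPM (M Sal replicate 2). Any difference in the tissue dissected cannot be told apart from age here. Counts from the mitochondrial genome rose for 32 of 34 genes tested (median 1.24). Their part in the fall of the members was not tested, and in whole tissue fewer cells of a type and less RNA per cell cannot be told apart. Among the members the change with age correlated with GC content (r = 0.31, n = 84 genes), a description only.

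Prenatal morphine went with lower ribosomal protein mRNA in newborn pups. With the drug effects of both labels averaged, 43 of 83 members tested were lower and 0 higher in PND1 morphine than in PND1 saline pups (51.8%, against 9.43% of all genes called lower), and 76 of 83 had a negative log2 fold change. The median was -0.14 for the members and 0.01 over all genes tested. By subunit, 23 of 43 large subunit members (median -0.11) and 17 of 31 small subunit members (median -0.17) were lower. The effects were small, between -0.32 and 0.17. Rpl3l was too low to be tested within this window.

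The M label carried most of the individual calls. In M pups 38 members were lower and 0 higher (45.8%, against 8.08% of all genes called lower; median -0.16). In F pups 0 members were called, with 0% of all genes called, 32 members at an unadjusted p under 0.05, 72 of 83 negative and a median of -0.12. Of all 21714 genes, 2547 were at an unadjusted p under 0.05 there. The smallest adjusted p of a member in F pups was 0.157 (edgeR), and DESeq2 called 1 member there among 125 of 40650 genes. The difference between the labels was called for 0 members (0% of all genes called). At an unadjusted p under 0.05 were 0 members and 1187 of 21714 genes. A larger effect in M than in F pups was thus not shown, and F had 4 morphine libraries where M had 6.

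Rps16, a small subunit protein that contacts the initiator tRNA, had the lowest p in M pups. Its levels in the 6 M morphine libraries, replicates 5 to 10 in order, were 133, 105, 101, 95.9, 81.6 and 96.1 CPM. The 7 M saline libraries lay between 109 and 151 CPM, with a median of 141 CPM. Of the morphine libraries, 5 were thus below every M saline library and 1, replicate 5, was inside the saline range. The log2 fold change was -0.42 (SE 0.08, edgeR adjusted p = 0.00114) in M pups. In F pups the 4 morphine libraries were at 113 to 124 CPM and the 7 saline libraries at 130 to 155 CPM, without overlap, and the log2 fold change was -0.23 (SE 0.09, edgeR adjusted p = 0.30).

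Rps23, a small subunit protein of the decoding centre, had the lowest p with both labels averaged, at -0.32 (SE 0.05, edgeR adjusted p = 0.000251). Its levels were 100 to 144 CPM in M morphine and 127 to 165 CPM in M saline pups, and 123 to 133 CPM in F morphine and 132 to 172 CPM in F saline pups, so the ranges overlapped under both labels, in F pups by 1 library on each side. Rps18, Rps28, Rpl11 and Rpl8 showed the same direction, at -0.29, -0.26, -0.29 and -0.27. Rpl11 is best known for binding Mdm2, which links ribosome assembly to p53. Among M pups Rps28 was at 39.2 to 55.6 CPM under morphine and at 50.5 to 60.4 CPM under saline. For all 4 of Rps16, Rps23, Rps18 and Rpl8 the highest M morphine library was replicate 5.

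The stalk was split in this contrast too. Rplp2 (-0.26, SE 0.05) and Rplp1 (-0.22, SE 0.05) were lower under morphine, and Rplp0 was not called (-0.08, SE 0.04, edgeR adjusted p = 0.140). Of the paralog pair, Rpl22l1 (-0.29, SE 0.07) and Rpl22 (-0.18, SE 0.04) were both lower. Members that fell far with age were not always among those lower here. Rpl10 (-0.04), Rps4x (0.02) and Rpl7 (0.01) were not called, nor were Rps6 (0.02), Rpsa (-0.01) and Rpl3 (-0.06). Rps27 had a positive value of 0.10 (SE 0.04, edgeR adjusted p = 0.106), and in M pups the retrogene Rps27rt had 0.29 (SE 0.10, edgeR adjusted p = 0.0591), at 3.46 to 4.78 CPM under morphine and 2.92 to 4.79 CPM under saline.

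The members rose and fell together from library to library. Within the groups of PND1, the deviations of 80 of the 81 members at 10 CPM or more on average correlated positively with the deviation of the member sum, with a median r of 0.904 over 24 libraries; each member is part of that sum. A single library therefore counts for all of them at once. The sum was 10355 to 11439 CPM in 5 of the 6 M morphine libraries and 13960 CPM in replicate 5, and 11797 to 13940 CPM in the 7 M saline libraries. In F pups the sum was 12249 to 12626 CPM under morphine and 12441 to 14344 CPM under saline, with overlap. Replicate 5 is also 1 of the libraries against its sex label. Without it 59 members were lower in M pups, and without M Mor replicate 9, the library with the lowest sum, 24 were. Calls among all genes moved too, between 1861 and 4944 in M pups over the fits without 1 library (3124 with all libraries). Without all libraries against their label, 60 members were lower in M pups and 58 with both labels averaged. Of all 21782 genes, 2495 and 2305 were lower in those fits, against 1754 and 2048 of 21714 with all libraries.

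Other measures differed between M morphine and M saline pups too, but did not all follow the member sum from library to library. The mean GC content of the counts was 49.9% ± 0.18 (SD, n = 6) in M morphine and 50.2% ± 0.15 (SD, n = 7) in M saline pups, and across all 21666 genes with a known GC content the log2 fold change in M pups correlated with GC content (r = -0.41, a description across genes). Of the 42 members at or above the median GC content 28 were lower with both labels averaged, against 15 of 41 below it. With a correction for GC content and length 28 members were lower with both labels averaged (median -0.09; 976 of 21714 genes lower) and 24 in M pups (median -0.11; 623 of 21714 genes lower). The 10 hindbrain and spinal cord genes summed to 4.03 to 76.8 CPM in M morphine and 0.0845 to 31.3 CPM in M saline pups, with 3 of 9 tested higher (Hoxb8, Hoxb7 and Hoxc5), whereas 0 of the 5 forebrain genes were called. Endothelial genes summed to 76.2 ± 6.58 CPM (SD, n = 6) in M morphine and 89.6 ± 9.40 CPM (SD, n = 7) in M saline pups (1 of 3 lower), and astrocyte genes to 395 ± 44.2 CPM (SD, n = 6) and 340 ± 27.5 CPM (SD, n = 7), with 1 of 4 higher. Counts from the mitochondrial genome were 10310 to 11850 CPM in M morphine and 8685 to 10370 CPM in M saline pups. M Mor replicate 5, with the highest member sum of its group, had its highest mean GC content (50.19%). It also had the highest mitochondrial counts of the group (11850 CPM). The part of these measures in the lower member levels, beyond the GC correction, was not tested.

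**Figure D4:**
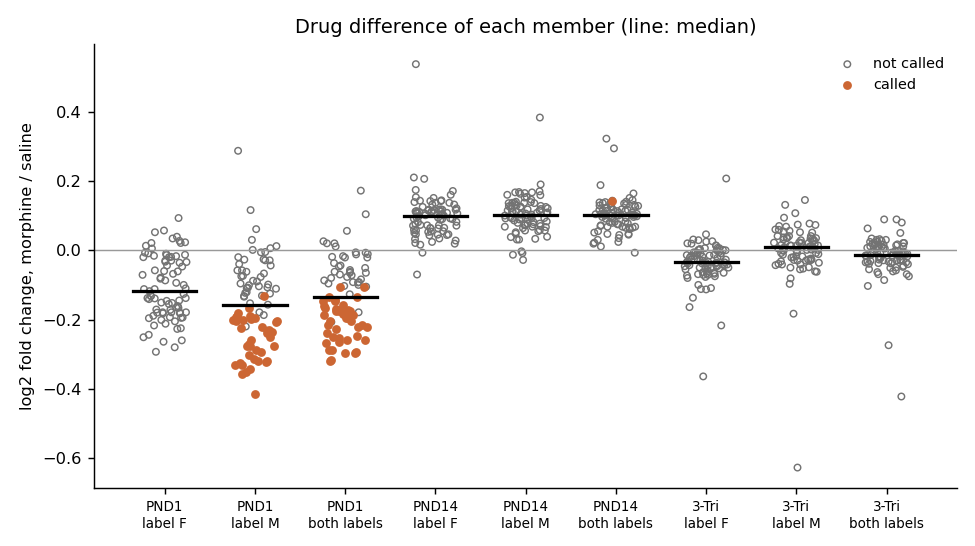
Log2 fold change of each member, morphine over saline, for F, M and both labels in each window, filled where called, with the median as a line. At PND1 most members lie below 0 (medians -0.12, -0.16 and -0.14), at PND14 nearly all above 0 (medians 0.10, 0.10 and 0.10), and in 3-Tri around 0.

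Postnatal morphine went with small positive values, nearly all of them not called. Their median with both labels averaged fell to 0.03 without the libraries of 1 ID number, 4422 (below). At PND14, 82 of 83 members had a positive log2 fold change with both labels averaged (median 0.10, all genes 0.01). An unadjusted p under 0.05 was found for 40 members and for 3150 of 19636 genes. Of the members 1, Rpl15, was called (1.2% of members, against 0.626% of all genes called higher). In F pups 81 of 83 were positive, 10 had an unadjusted p under 0.05 (2054 of 19636 genes) and 0 were called. The share of F members under that p was thus close to the share of all genes. In M pups 79 of 83 were positive, 19 had an unadjusted p under 0.05 (1825 of 19636 genes) and 0 were called. Of all genes 0% and 0.28% were called, with smallest member adjusted p-values of 0.288 and 0.0771 (edgeR). Since the members move together between libraries, with a median r of 0.849 within PND14 groups, a like sign in most members is not the same as many separate results. The difference between the labels was called for 0 members (0% of all genes), with 0 members and 676 of 19636 genes at an unadjusted p under 0.05.

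Rpl15 encodes a large subunit protein. Its levels were 157 to 197 CPM in the 12 PND14 morphine libraries (median 176) and 145 to 176 CPM in the 12 saline libraries (median 159). The ranges overlapped, with a log2 fold change of 0.14 (SE 0.03, edgeR adjusted p = 0.0292). Alternatives gave values of 0.11 to 0.17 for it with adjusted p-values between 0.00196 and 0.394, and in 15 of 37 of them it was not called. Without single libraries 0 to 6 members were called, with 0 called without M Mor replicates 2 or 9, F Mor replicates 5 or 11, M Sal replicates 8 or 9, or F Sal replicate 11. In these fits 110 to 638 of all genes were called (332 with all libraries). Rps18 (0.15), Rps23 (0.14), Rpl8 (0.10) and Rps16 (0.10), lower at PND1, had positive values here that were not called.

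The sample IDs of the day 14 windows open with a number whose meaning is not stated, and each number holds 1 drug only. At PND14 the member sum was 10610 ± 600 CPM (SD, n = 6) for morphine libraries of number 4422 and 9646 ± 707 CPM (SD, n = 6) for those of 4423, against 9613 ± 375 CPM and 9272 ± 610 CPM (SD, n = 6 each) for the saline numbers 4424 and 4425. The higher sums thus lay in the libraries of 1 of the 2 morphine numbers. Without number 4422 the count of members called was 0 and the median of the members 0.03, and without 4423 they were 6 and 0.17, against 0.10 with all libraries. The count of members was also 0 without 4424 and without 4425. Over the 4 fits without 1 number, 0 to 255 of all genes were called (332 with all libraries). If the numbers stand for dams or cages, drug and litter cannot be told apart.

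Cell type markers differed with the drug at PND14 too. The 5 oligodendrocyte genes summed to 3529 ± 704 CPM (SD, n = 12) in morphine and 4342 ± 542 CPM (SD, n = 12) in saline pups, and 3 of them (Mag, Mobp and Mog) were lower (median of the list -0.39; 1.06% of all genes called lower). Astrocyte genes summed to 3174 ± 275 CPM and 3517 ± 296 CPM (SD, n = 12 each), with 0 of 4 called, and microglial genes to 260.7 ± 18.4 CPM and 279.8 ± 9.11 CPM (SD, n = 12 each), with 1 of 5 lower. Of the 5 neuronal genes 2, Stmn2 and Tubb3, were higher. The part of these differences in the values of the members was not tested.

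Rps27a, whose product is a fusion of ubiquitin and a small subunit protein, varied most among the well-expressed members. Its median coefficient of variation within groups was 22.2%, against 6.68% for the median of 81 members and 12.8% for the next highest. At PND14 it had the highest log2 fold change of the members with both labels averaged, 0.32 (SE 0.11, edgeR adjusted p = 0.136). In F pups its levels were 91.5, 107, 97.7, 82.3, 109 and 84.3 CPM under morphine and 71.5, 48.9, 81.4, 61.1, 85.6 and 49.6 CPM under saline. Of the F morphine libraries, 4 were above every F saline library and 2 were below the highest of them. In M pups the levels ran from 51.1 to 106 CPM under morphine and from 40.8 to 88 CPM under saline, so most of them overlapped. Its deviations followed the member sum least in all 3 windows (r = -0.41 at PND1, 0.14 at PND14 and 0.01 in 3-Tri).

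**Figure D5:**
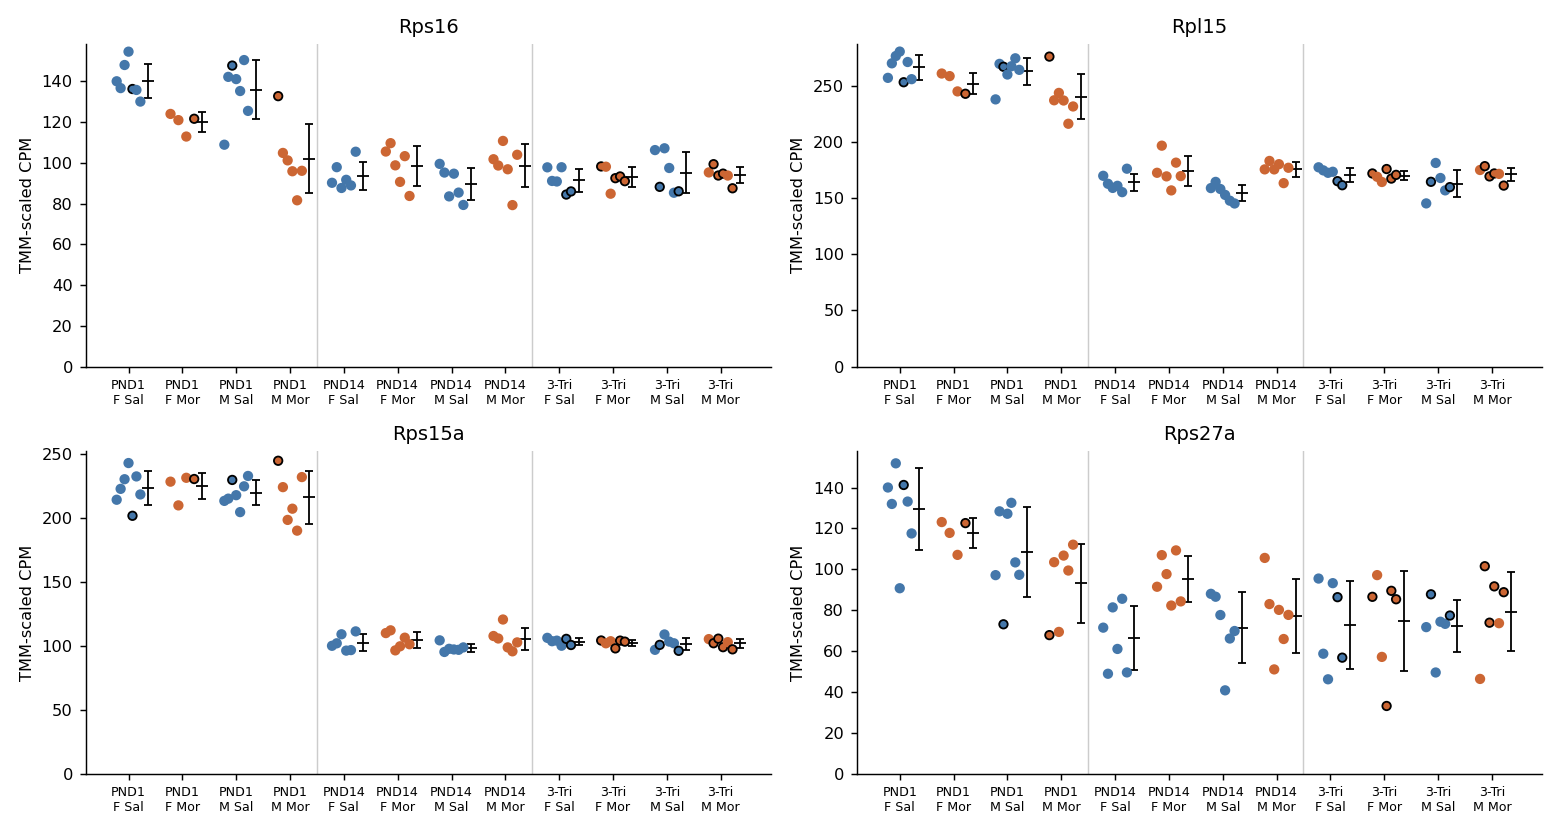
TMM-scaled CPM of Rps16, Rpl15, Rps15a and Rps27a in each library (axes from 0), by window, sex label and drug, with group mean and SD bars and libraries against their sex label outlined in black. Rps15a falls from 202 CPM or more in PND1 saline pups to 111 CPM or less in PND14 saline pups, Rps16 is lower in 5 of 6 PND1 M morphine libraries, and Rps27a scatters within most groups.

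After exposure through both periods no member was called. In 3-Tri pups 0 of 84 members were called in F, in M or with both labels averaged (0% of all genes called in each), and the medians were -0.04, 0.01 and -0.01. At an unadjusted p under 0.05 there were 2, 0 and 4 members, and 476, 982 and 963 of all 19730 genes. With both labels averaged the smallest adjusted p of a member was 0.970 (edgeR). Without the libraries against their sex label the medians were -0.09, -0.02 and -0.05, with 79 of 84 members negative for both labels averaged and 0 called. Scaled by total counts, 51 of 84 were positive (median 0.01, all genes 0.02). The member sum ranged from 8866 to 10470 CPM over all 24 libraries. Since 12 of these libraries went against their sex label, the difference between the labels, called for 0 members (0% of all genes), has little meaning in this window.

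The drug effects differed between windows for many members. The PND14 effect was higher than the PND1 effect for 52 of 84 members and lower for 0 (61.9%, against 7.25% of all genes called higher; median difference 0.22), with 31 large and 17 small subunit members among them. Rps18 had the lowest p, with a difference of 0.44 (SE 0.07, edgeR adjusted p = 1.44e-05), followed by Rps23 (0.45, SE 0.07) and Rpl8 (0.37, SE 0.06). The 3-Tri effect was higher than the PND1 effect for 24 members (28.6%, against 4.58% of all genes called higher) and lower for 1, the retrogene Rps27rt (-0.45, SE 0.14). Rps23 (0.34, SE 0.07) and Rpl8 (0.28, SE 0.06) led these. Both differences use the same PND1 libraries. Scaled by total counts, the 3-Tri difference was higher for 27 members and lower for 1, and the split of all genes went from 1007 higher and 848 lower to 1244 and 503. Between 3-Tri and PND14, which share no libraries, 0 members differed (0.182% of all genes called, median -0.11). At an unadjusted p under 0.05 were 20 members and 2012 of 22010 genes. Without the libraries against their sex label, which leaves out 16 of 72, the 3-Tri difference from PND1 was called for 0 members and for 50 of all 22523 genes (1855 of 22010 with all libraries), and the median of the members was 0.10 in place of 0.12. Without the ID number 4433 it was called for 1 member and without 4429 for 5. The PND14 difference from PND1 was called for 28 members without the ID number 4422 and for 34 without 4425. Over the fits without 1 ID number, 1834 to 3072 of all genes were called for the PND14 difference (2931 with all libraries). For the 3-Tri difference from PND1 they were 228 to 2077 (1855 with all libraries).

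Across the 83 members tested in both, the drug effects of F and M pups at PND1 correlated at r = 0.84, those at PND14 at 0.32, and the 84 of 3-Tri at 0.50. The PND1 and PND14 effects correlated at -0.35 with both labels averaged. These are descriptions across genes of like length and base composition measured in the same libraries, and no library is shared between the effects compared.

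The sex label by itself made little difference to the members, though at PND1 and in 3-Tri some saline libraries went against it. With those left out, 0 members were called in either window. At PND1 the median was then -0.056, with 72 of 83 members negative and 21 of 21782 genes called. In 3-Tri it was -0.025, with 13 of 20252 genes called. Between M and F saline pups 0 members differed at PND1 (0.00461% of all genes called, median -0.03), 0 at PND14 (0.0968%, median -0.05) and 0 in 3-Tri (0%, median -0.03). At an unadjusted p under 0.05 were 1, 1 and 2 members. Of all genes 1947 of 21714, 589 of 19636 and 513 of 19730 were, in the same order.

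Other genes of the ribosome and of translation were counted in the same contrasts. With age 43.2% of all genes were called lower and 41.7% higher, against which the lists are to be read. From PND1 to PND14 in saline pups, 17 of 20 genes of the translation machinery with TOP-type mRNAs were lower and 2 higher (median -0.37), with Hnrnpa1 (-1.20), Rack1 (-0.86), a scaffold on the small subunit, and Btf3 (-0.73) leading. Of 25 ribosome biogenesis genes 18 were lower and 3 higher (median -0.34). The snoRNP genes Nop58 (-0.93) and Nop56 (-0.68) were among the lower ones and Tsr1, a factor of small subunit maturation, among the higher ones (0.78). Of 16 genes that control translation or ribosome production, 10 were lower and 3 higher, led by Myc (-1.38) and Mycn (-1.33), which drive transcription of ribosome genes. Of 78 mitochondrial ribosomal protein genes, by contrast, 44 were higher and 25 lower (median 0.14), with Mrps12 (1.10) and Mrpl48 (0.88) among the higher ones.

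Under prenatal morphine, with both labels averaged, 9.43% of all genes were called lower and 7.39% higher. The TOP-type list had 4 of 20 lower and 2 higher (median -0.01), with Fau at -0.30 (SE 0.06). The mitochondrial ribosomal proteins had 11 of 78 lower and 3 higher (median -0.02), biogenesis genes 7 of 25 lower and 3 higher (median -0.01), and control genes 1 of 16 lower (Maf1, a repressor of RNA polymerase III). At PND14 Hnrnpa1 of the TOP-type list (0.12, SE 0.03) and Myc of the control list (0.25, SE 0.06) were higher under morphine. In that contrast 0.626% of all genes were called higher and 1.06% lower, and single genes do not speak for lists of 20 and 16.

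The members were also split by the letters at the start site. The 22 members with a run of at least 8 pyrimidines had a median change with age of -0.43 and the 42 without it -0.50. Under prenatal morphine the medians were -0.12 for 22 and -0.11 for 41 members. The 12 members with CCGGAAGT had a median of -0.35 with age and the 52 without it -0.46. Under prenatal morphine the medians were -0.13 for 12 and -0.11 for 51 members. These medians were not tested.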

How the data were processed

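RNA-seq counts from 72 libraries were used. The authors trimmed reads with Trim Galore 0.6.6, aligned them with HISAT2 2.2.1 to mm10, removed duplicates with Picard and counted them per gene with featureCounts 2.0.1 on GENCODE M25. The deposited values are raw counts per gene and library. No source used here gives the strand or multi-mapping settings. The deposited comparison tables also hold a mean signal per gene, which the authors computed from counts divided by size factors and which served only to find the libraries they left out. Their fold changes, standard errors, test statistics and p-values were not used.

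Tests were run in R 4.3.3 with edgeR 4.0.16 (quasi-likelihood F test, TMM scaling, filterByExpr with a minimum count of 10 and a minimum total of 15, Benjamini-Hochberg adjustment over all genes tested, adjusted p under 0.05 for a call). The 4 groups of a window were fitted together. Differences between windows came from 1 fit of all 72 libraries. CPM values are TMM-scaled over all 72 libraries. Total counts of 3113919 to 27333125 per library set the precision. Length and GC content came from GENCODE M21, which matched all 84 members. The steps were tested on simulated data. Replicates of a group differed by a chi-square per gene of at least 1.64, so none was counted as a duplicate, and 0 columns lacked a sample.

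Members named were the 6 called with the lowest p in each direction and comparison, the 6 with the highest and the 6 with the lowest change with age, and fixed members by role. A few further values, such as those at PND14 of members lower at PND1, were chosen after they were seen. A member and 1 gene of the lists entered the counts and medians but are not reported here by name. The members, lists and tests were chosen with earlier results of these data known. Alternatives were DESeq2 size factors, total counts, no filter, GC and length correction, DESeq2 1.42.0, limma 3.58.1, fits of only the compared groups, a block for the replicate number, a random effect for the ID number, and fits without single libraries (of the window, or of PND1 saline between windows), single ID numbers, the 2 shallowest libraries or those against their sex label.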

Additional observations from a re-analysis of the deposited data

Results flagged for a closer look

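Of 84 tests for a library standing apart (7 quantities in 12 groups), 6 found one, and chance gives about 1 in 20. The member sum of PND1 M Mor replicate 5 was 13960 CPM, above the other 5 libraries of its group. Rps15a stood apart in 3-Tri F Mor replicate 10 at 98.13 CPM and in PND1 F Mor replicate 2 at 210.1 CPM. Rpl15 stood apart in PND1 M Sal replicate 8 at 238 CPM. Rpl3l stood apart in PND1 M Mor replicate 9 at 0.3963 CPM and in 3-Tri M Sal replicate 1 at 1.487 CPM, the latter in the library of 3113919 counts.

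The drug effect differed by a test of the difference itself between PND14 and PND1 for 52 of 84 members (2931 of 22010 genes). Between 3-Tri and PND1 it differed for 25 members, 24 higher and 1 lower (1855 of 22010 genes). Without the libraries against their sex label the latter count was 0 (50 of 22523 genes).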

How the results depend on the processing

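Of 720 counts of called members recomputed under the alternatives, 679 stayed within 1.5 times the reported count. Many of these belong to comparisons with 0 members called, and others to refits that removed no library of their window. The share that stayed is thus no measure of how stable the other counts are. The GC content and length correction gave 24 for PND1 M (38 reported), 28 for PND1 both labels (43), 0 for PND14 both labels (1), 30 for the drug effect of PND14 against PND1 (52) and 13 for that of 3-Tri against PND1 (25). Calls among all genes fell too, from 3124 to 1150, 3653 to 1793, 332 to 279, 2931 to 1408 and 1855 to 926, in the same order. Without the libraries against their sex label the count was 60 for PND1 M, with 3841 genes called in all (3124 with all libraries). It was 0 for 3-Tri against PND1, where 50 genes were called in all (1855 with all libraries) and the median of the members was 0.10 (0.12). Fits of only the compared groups gave 25 for PND1 M and 1 for PND14 M, with 2066 and 124 of all genes called (3124 and 55 reported). For PND14 both labels, total counts gave 0, no filter 0, the random effect for the ID number 2 (1 in M) and DESeq2 5 (1 in M and 1 in PND1 F). Calls among all genes were 262, 257, 644 (101) and 679 (201 and 125), in the same order. Leaving out 1 library at a time gave 24 to 59 for PND1 M, 36 to 58 for PND1 both labels, 0 to 1 for PND14 M and 0 to 6 for PND14 both labels. Calls among all genes ran from 1861 to 4944, 2605 to 5029, 0 to 120 and 110 to 638, in the same order. The PND14 count of members with both labels was 0 without the ID number 4422, 4424 or 4425 and 6 without 4423. PND14 against PND1 gave 28 without 4422 and 34 without 4425, 3-Tri against PND1 gave 5 without 4429 and 1 without 4433, and 3-Tri against PND14 gave 3 without 4423. Without 1 ID number, 0 to 255 of all genes were called for PND14 both labels. They were 1834 to 3072 for PND14 against PND1, 228 to 2077 for 3-Tri against PND1 and 0 to 57 for 3-Tri against PND14. The cause was not tested.

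Same-numbered replicates did not deviate together, with a median correlation of -0.023 over 10 pairs at PND1, -0.00916 over 12 at PND14 and 0.072 over 12 in 3-Tri, so the number was not taken as a pairing. The replicate block gave 46 for PND1 both labels, 36 for PND1 M, 0 for PND14 both labels, 54 for PND14 against PND1 and 28 for 3-Tri against PND1. Calls among all genes were 3970, 1828, 98, 3115 and 2025, in the same order. The block could not be fitted for the saline contrasts between windows, nor for M against F saline at PND14 and in 3-Tri.

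Values near 0 changed sign. With age, Rpl38 went to -0.005 (DESeq2 size factors), -0.204 (total counts), -0.002 (no filter), -0.121 (GC and length), -0.006 (DESeq2) and -0.018 (without the ID number 4424), Rps21 to -0.168 (total counts) and -0.076 (GC and length), Rps23rg1 to -0.177 and -0.028 under the same pair, Rps2 to -0.062 at PND14 and -0.057 in 3-Tri (total counts), and Rplp1 to 0 without the libraries against their label. At PND1 with both labels averaged, Rpl7 went to -0.018 (GC and length), -0.006 (replicate block) and -0.029 (without the libraries against their label), Rps4x to -0.009 (replicate block) and -0.021, Rps6 to -0.014 (replicate block) and -0.013, and Rps27a to 0.01 (replicate block). Leaving out 1 library at a time, the PND1 values ran from -0.008 to 0.027 for Rpl7, from 0 to 0.029 for Rps4x and from -0.036 to 0.006 for Rpsa, and the change of Rplp1 with age from -0.025 to 0.007.

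Depth limits the rarest members, since Rpl3l and Rps23rg1 stayed under 1 RPKM and a library of 3113919 counts holds only a few of their reads.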

Other observations

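Processed pseudogenes of the ribosomal protein genes, named with -ps, had counts of their own. From PND1 to PND14 in saline pups 71 of 122 could be tested, of which 26 were lower and 22 higher (median log2 fold change 0.07), where 43.2% of all genes were lower and 41.7% higher. Rpl19-ps3 (-2.03, SE 0.23) and Rps12-ps3 (-1.07, SE 0.07) were lower and Rpl21-ps15 was higher (0.93, SE 0.08). Under prenatal morphine, with both labels averaged, 60 could be tested, of which 6 were lower and 2 higher (median -0.10), where 9.43% of all genes were lower and 7.39% higher. Rps16-ps2 (-0.39, SE 0.06) and Rps19-ps6 (-0.75, SE 0.16) were lower and Rpl7a-ps3 was higher (0.65, SE 0.12). How many of these reads belong to the parent genes was not tested.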
